A study of Mus musculus with 20 samples.

Results

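Angiogenin (Ang), ribonuclease 4 (Rnase4) and the ribonuclease inhibitor Rnh1 were followed in the mouse liver by 5 array probe sets. A probe set is a set of short probes that together give 1 score. The probe sets were all those whose platform annotation gives 1 of these 3 symbols and no other, out of 45037 probe sets and 18193 named genes. The 3 genes were picked with the diet comparison of these same arrays already known, so their diet differences are given below as a description and without a test. The mice were male C57BL/6J, an inbred strain, 8 weeks old at sampling, and every group had first been kept for 1 week on the low-fat diet after arrival at 3 weeks of age. The high-fat group (n = 10) then ate a diet with 45% of its energy from fat for 4 weeks, and the low-fat group (n = 10) a diet with 10%. Livers were taken after 16 h without food, and the RNA of each liver was read on an array of its own. Groups given a maple syrup extract, which the study design also names, are not analysed here.

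Ang and Rnase4 belong to the family of ribonuclease A, small secreted enzymes that cut RNA. Angiogenin is a weak ribonuclease that circulates in plasma, is made in quantity by the liver, promotes the growth of blood vessels, and in stressed cells cuts transfer RNAs in the anticodon loop. Ribonuclease 4 prefers to cut after uridine. Rnh1 is a cytosolic protein built of leucine-rich repeats that binds enzymes of this family very tightly and blocks them. In mice Ang and Rnase4 overlap on chromosome 14, share their first exons and are transcribed from a common promoter, with separate coding exons, whereas Rnh1 lies on chromosome 7.

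The shared start can be read from the sequence tables of RefSeq (build GRCm38.p6), in which all 3 genes were found. Of 32817 annotated promoter windows, 34 (0.104%) were annotated at the same position and strand to more than 1 gene. The first window of Ang and Rnase4 is one of them. Windows of different genes that overlap only in part were not counted as shared. The 250 bases before this start, and those before a second start annotated to Rnase4 alone, are shown because both genes use the first start and only Rnase4 has the second. Capitals mark a CCAAT box (CCAAT on either strand).
Ang and Rnase4, chr14:51090827-51091076, plus strand: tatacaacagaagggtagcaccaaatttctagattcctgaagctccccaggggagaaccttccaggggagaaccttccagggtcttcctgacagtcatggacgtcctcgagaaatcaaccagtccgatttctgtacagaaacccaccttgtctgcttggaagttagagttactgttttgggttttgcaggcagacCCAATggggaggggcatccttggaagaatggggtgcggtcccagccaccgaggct
Rnase4 alone, chr14:51095750-51095999, plus strand: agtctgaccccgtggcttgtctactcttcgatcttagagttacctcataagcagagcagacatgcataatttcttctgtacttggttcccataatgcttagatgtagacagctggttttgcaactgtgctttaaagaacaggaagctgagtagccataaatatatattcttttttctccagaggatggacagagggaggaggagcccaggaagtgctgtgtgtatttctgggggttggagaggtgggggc
The search covered the TATA box as TATAAA, the CCAAT box, the GC box as GGGCGG, the E box as CACGTG and the forkhead motif as TGTTTAC on both strands, and none of these overlapped another in the windows shown. The shared window held 1 CCAAT, which 33.8% of all windows hold, and none of the other 4 motifs. No motif of the 5 was found before the second Rnase4 start. Upstream of the 3 annotated Rnh1 starts there were 3 GC boxes (GGGCGG, in 32.7% of all windows), 1 TATAAA (12.4%) and 1 CACGTG (6.02%), each of these kinds before a different start. G and C made up 52.4% of the shared window, 46.0% of the second Rnase4 window and 52.4% at the median of all windows.

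The deposited values are processed scores whose level runs like a log2 intensity, from 5.18 to 15.0, but whose differences between mice are strongly compressed. The median SD of a probe set within diets was 1.15e-05, and 98.3% of probe sets had an SD below 0.001. Sizes are not read as log2 fold changes for that reason, and are given as standardised differences, the high-fat mean minus the low-fat mean divided by the SD within diets, with a 95% interval. Array medians lay between 6.56702 and 6.5672 with the high-fat mean above the low-fat mean by 7.33e-05. Of all probe sets, 2.32% passed a Benjamini-Hochberg adjusted p of 0.05 in limma, 1.11% upward with the high-fat diet and 1.2% downward, 15.1% had an unadjusted p of 0.05 or less, and 1.75% passed by the exact Wilcoxon test. The median standardised difference of all was 0.04. Whether the replicates came from separate cages or litters is not stated in the labels.

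Angiogenin was higher in the livers of high-fat mice by all 3 of its probe sets. Probe set 1438936_s_at had scores of 12.285773, 12.28581 and 12.285913 (lowest, median and highest) in high-fat mice, against 12.285427, 12.28559 and 12.285656 in low-fat mice. All 10 high-fat mice lay above all 10 low-fat mice, a separation seen upward in 30 of all probe sets (0.0666%). The mean score was 12.285831 ± 5.06e-05 in high-fat and 12.285584 ± 6.56e-05 in low-fat mice (SD, n = 10 each), a standardised difference of 4.22 (95% interval 2.58 to 5.83).

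The second Ang probe set, 1438937_x_at, ran from 11.477701 over a median of 11.478176 to 11.478471 in high-fat mice, against 11.476393, 11.477448 and 11.477749 in low-fat mice. The groups touched only at their edge, with 9 high-fat mice above the highest low-fat mouse. The standardised difference was 2.42 (1.23 to 3.58), and the high-fat mouse was higher in 98.0% of the 100 pairings across diets. The third, 1450717_at, had scores of 10.280143, 10.280922 and 10.281477 in high-fat mice, against 10.279089, 10.27983 and 10.280381 in low-fat mice. Here 8 high-fat mice exceeded every low-fat mouse, and the standardised difference was 2.34 (1.16 to 3.48). The suffixes of the first 2 probe sets mark probes that can also bind other transcripts, and close relatives of Ang exist, so 1450717_at is the probe set of Ang that carries no such mark.

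**Figure D1:**
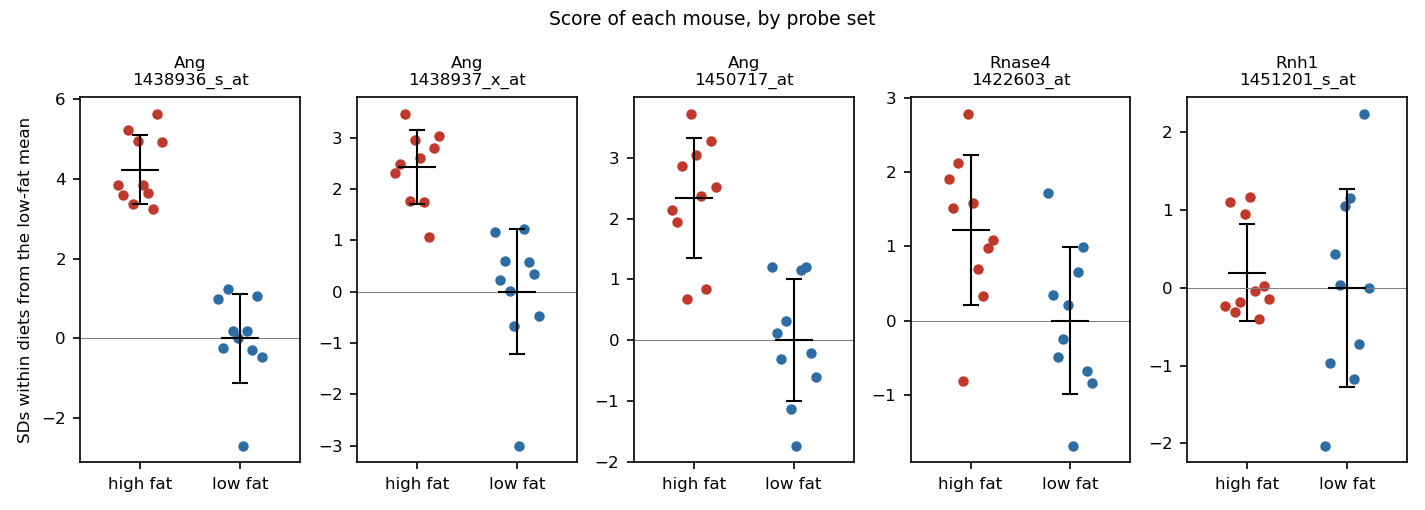
Each point is 1 mouse, and the vertical axis gives its score as the distance from the low-fat mean in SDs within diets, for each of the 5 probe sets with high-fat mice on the left and low-fat mice on the right. Bars show the mean and SD (n = 10 each). For Ang 1438936_s_at the groups do not overlap, for Rnase4 they overlap widely, and for Rnh1 the high-fat mice lie inside the range of the low-fat mice.

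Rnase4, which shares its promoter with Ang, differed less between the diets. Its probe set 1422603_at, which carries no suffix for shared probes, ran from 12.247165 over a median of 12.247465 to 12.247675 in high-fat mice, against 12.24704, 12.247277 and 12.247524 in low-fat mice. The groups overlapped, with 3 high-fat mice above the highest low-fat mouse and 9 above the low-fat median. The mean was 12.247453 ± 0.000144 in high-fat and 12.24728 ± 0.000141 in low-fat mice (SD, n = 10 each), a standardised difference of 1.22 (0.24 to 2.17), and the high-fat mouse was higher in 81.0% of pairs. The interval overlaps that of Ang 1450717_at, and whether the 2 genes differ in their response was not tested, because this contrast chose them.

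Rnh1, the inhibitor, stood close to 0. Its only probe set, 1451201_s_at, whose probes may bind other transcripts too, had scores of 9.617456, 9.617462 and 9.617486 in high-fat mice, against 9.617426, 9.617464 and 9.617505 in low-fat mice. Every high-fat mouse lay within the range of the low-fat mice. The standardised difference was 0.19 (-0.69 to 1.07), but -0.72 after quantile normalisation and -1.42 after centring arrays on their medians. The spread within a diet was 1.15e-05 in high-fat and 2.35e-05 in low-fat mice (SD of the score, n = 10 each). In the fit over all probe sets 3 of the 5 member probe sets passed, all of Ang and all higher, beside 1.11% of all probe sets called in that direction, 1.2% in the other and 2.32% in either. The exact Wilcoxon test passed the same 3, beside 1.75% of all. Since the members were chosen on this contrast, nothing is read from that count.

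**Figure D2:**
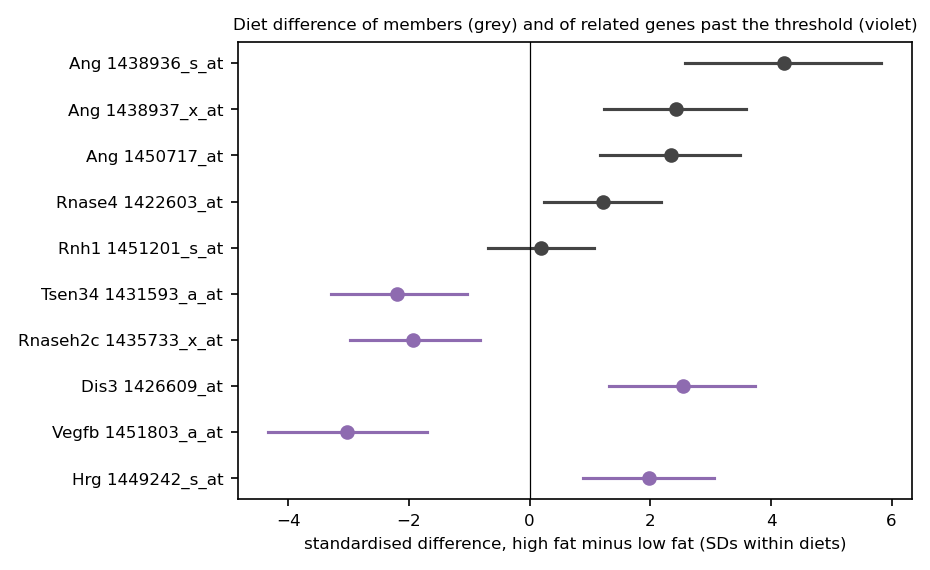
Standardised differences, high fat minus low fat in SDs within diets, with 95% intervals, for the 5 member probe sets (grey) and for the probe sets of related genes that passed the threshold (violet). Ang spans 2.34 to 4.22, Rnase4 stands at 1.22 and the interval of Rnh1 includes 0. Hrg turned to -1.08 and Rnh1 to -1.42 after array median centring.

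The variation among mice of the same diet was not used to choose the genes, and there the score of Ang 1450717_at went with that of Rnase4 in both diets, though not past the threshold after quantile normalisation. In high-fat mice the scores of Ang 1450717_at and Rnase4 had r = 0.79 (Pearson, n = 10, permutation p = 0.00643, adjusted p = 0.0238) and rho = 0.64 (Spearman, permutation p = 0.053, adjusted p = 0.106). In low-fat mice r was 0.83 (permutation p = 0.00318, adjusted p = 0.0233) and rho 0.84 (permutation p = 0.00386, adjusted p = 0.0257; n = 10). Of all other probe sets, 0.255% in high-fat and 0.817% in low-fat mice correlated at least as strongly upward with this Ang probe set. After quantile normalisation r was 0.50 in high-fat mice (permutation adjusted p = 0.413) and 0.68 in low-fat mice (permutation adjusted p = 0.265), adjusted over the 12 pairs that still varied. The two-sided tests on the scores as deposited belong to a family of 20, each pair of the 5 probe sets in each diet, of which 10 passed by Pearson's and 6 by Spearman's coefficient.

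Without the 2 mice farthest from the Ang median, r was 0.42 in high-fat and 0.66 in low-fat mice. None of the 20 correlations passed by permutation in this setting (n = 8 each). Leaving out the most extreme mice also narrows the range and lowers n. How far the relation rests on those mice is therefore not decided by these values. Ang 1438937_x_at and Rnase4 had r = 0.69 in high-fat (permutation adjusted p = 0.0513) and 0.76 in low-fat mice (permutation adjusted p = 0.0238, n = 10 each). For Ang 1438936_s_at and Rnase4 r was 0.50 in both diets (permutation adjusted p = 0.193 in both, n = 10 each). The 3 Ang probe sets, which read the same gene on the same arrays, correlated with each other at 0.77 to 0.83 in high-fat and 0.53 to 0.86 in low-fat mice. Low-fat replicate 6 was the lowest mouse of its diet in all 3 Ang probe sets and in Rnase4. Leaving it out lowered the count of passing correlations from 10 to 5, with r = 0.74 (permutation adjusted p = 0.0622) for Ang 1450717_at and Rnase4. Leaving out low-fat replicate 1 lowered the count to 6. In high-fat mice the same pair had r = 0.65 (permutation adjusted p = 0.107) without high-fat replicate 4 and 0.71 (permutation adjusted p = 0.061) without high-fat replicate 5.

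In low-fat mice Rnh1 was inversely related to Rnase4 and to 1 of the 3 Ang probe sets. With Rnase4, r was 0.45 in high-fat mice (permutation p = 0.197, adjusted p = 0.232) and -0.77 in low-fat mice (permutation p = 0.00885, adjusted p = 0.0238; rho = -0.78, permutation adjusted p = 0.0432; n = 10 each). With Ang 1450717_at, r was 0.45 in high-fat mice (permutation adjusted p = 0.232) and -0.74 in low-fat mice (permutation adjusted p = 0.026; rho = -0.76, permutation adjusted p = 0.0473; n = 10 each). With the other two Ang probe sets Rnh1 had a low-fat r of -0.54 (1438937_x_at, permutation adjusted p = 0.168) and -0.15 (1438936_s_at, permutation adjusted p = 0.715, rho = 0.03; n = 10), and neither passed. Without the 2 far mice the low-fat values were -0.64 with Rnase4 and -0.65 with Ang 1450717_at, and neither passed. Without low-fat replicate 1 they were -0.66 (permutation adjusted p = 0.0976) and -0.68 (permutation adjusted p = 0.0898), so that 1 mouse ended both calls. Without low-fat replicate 6 they were -0.77 (permutation adjusted p = 0.0523) and -0.73 (permutation adjusted p = 0.0622). The call with Ang was also lost without low-fat replicate 5 (-0.72) and without low-fat replicate 7 (-0.71). After quantile normalisation r was -0.63 with Rnase4 and -0.59 with Ang 1450717_at (permutation adjusted p = 0.265 for both). Among all other probe sets, 2.88% had an r with Rnase4 in low-fat mice of -0.77 or lower.

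The difference in r between the diets did not pass, at 1.22 with Rnase4 and 1.19 with Ang 1450717_at (permutation of diet labels over mice, p = 0.0114 and 0.0117, adjusted p = 0.0585 for both over 10 pairs, a test added after the values were seen). Rnh1 varied with the array median in low-fat mice (r = 0.56) and Rnase4 against it (r = -0.51), while in high-fat mice the values were 0.20 and 0.24. The part of the array median in these relations was not tested. After centring arrays on their medians, r in low-fat mice was 0.55 for Rnh1 and Rnase4, a turned sign, and 0.81 for Ang 1450717_at and Rnase4.

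**Figure D3:**
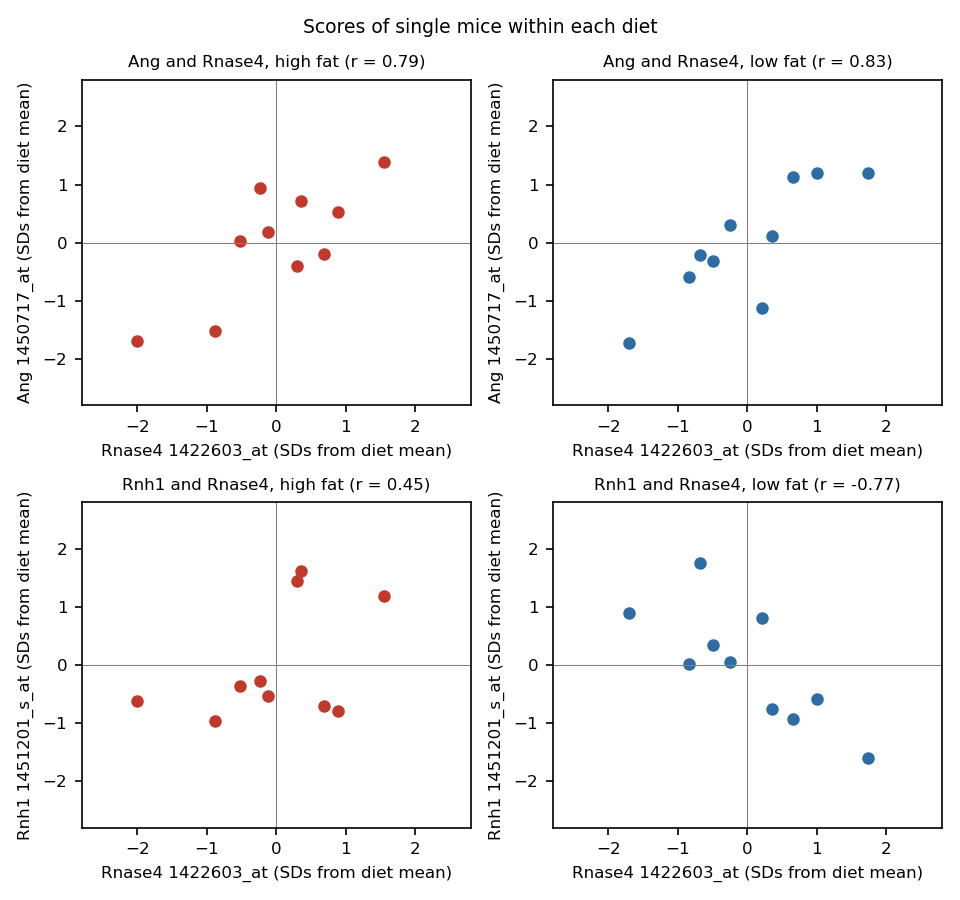
Points are single mice, with scores as distances from their own diet's mean in SDs, high-fat mice in the left panels and low-fat mice in the right panels. Ang 1450717_at rises with Rnase4 in both diets (upper row, r = 0.79 and 0.83), and Rnh1 falls with rising Rnase4 among low-fat mice (lower row, r = 0.45 and -0.77).

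The other ribonucleases of the same family did not pass in either direction. Of 24 relatives 9 were measured, by 10 probe sets. Limma and the exact Wilcoxon test called 0 of these, beside 2.32% and 1.75% of all probe sets. An unadjusted limma p of 0.05 or less was seen in 4 (15.1% of all probe sets), and the median standardised difference was 0.38. All 10 had mean scores of 5.77 to 6.47, below the array medians, and detection calls were not among the values used here. Ang2, a close copy of Ang, stood at 1.39 (0.39 to 2.36, limma adjusted p = 0.109), with a mean score of 6.163171 in high-fat and 6.163152 in low-fat mice. Of Ang4, another copy, the 2 probe sets stood at 1.24 (limma adjusted p = 0.159) and 0.48 (limma adjusted p = 0.698), and Ang3 stood at 0.13 (limma adjusted p = 0.931). Rnase10 had the highest mean score of the family list and stood at 0.28 (limma adjusted p = 0.826). Ear3, an eosinophil-associated ribonuclease, was the lowest at -1.52 (-2.51 to -0.50, limma adjusted p = 0.0769).

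Receptors and binding partners of angiogenin also gave 0 of 13 probe sets of 5 genes past the threshold by limma or Wilcoxon. Over all probe sets the shares were 2.32% and 1.75%. Of the 13, 5 had an unadjusted limma p of 0.05 or less, beside 15.1% of all probe sets. The median of the 13 was 0.63 (0.04 over all probe sets), and 12 of the 13 were above the low-fat mean, beside 52.2% of all probe sets. Of the 13, 7 are probe sets of the single gene Egfr on the same mice. Plxnb2, a plexin that acts as an angiogenin receptor, stood at 0.05 (-0.82 to 0.93, limma adjusted p = 0.973). Egfr, the epidermal growth factor receptor, had 7 probe sets between 0.08 and 1.35, the highest with a limma adjusted p of 0.118. Sdc4, a cell surface heparan sulfate proteoglycan with the highest mean score of this list, stood at 0.04 (limma adjusted p = 0.981).

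Among genes that cut, splice or protect transfer RNAs, 1 of 18 probe sets of 10 genes passed, a fall of Tsen34. Of all probe sets 1.2% were called lower and 2.32% in either direction. Tsen34 is a catalytic subunit of the tRNA splicing endonuclease. Its scores were 9.113606, 9.113651 and 9.11367 in high-fat mice, against 9.113661, 9.113688 and 9.113732 in low-fat mice (lowest, median and highest), so all 10 high-fat mice lay below the low-fat median. The standardised difference was -2.19 (-3.30 to -1.04, limma adjusted p = 0.0119). The other measured subunits, Tsen15 (-0.07) and Tsen54 (-0.29), did not pass. Nsun2 (0.59) and Trdmt1 (0.57 and -0.16), methyltransferases that shield transfer RNAs from cutting, and Rtcb, the tRNA ligase with the highest mean score of this list (-0.19, limma adjusted p = 0.892), did not pass either. The list median was 0.17.

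Of the other ribonucleases, 2 of 33 probe sets of 15 genes passed, 1 in each direction, with a list median of 0.01. Of all probe sets 2.32% passed, 1.11% higher and 1.2% lower. Dis3, the catalytic ribonuclease of the nuclear RNA exosome, rose. Its scores were 7.823884, 7.823966 and 7.824021 in high-fat mice, against 7.823819, 7.82388 and 7.823901 in low-fat mice, a standardised difference of 2.54 (1.32 to 3.73, limma adjusted p = 0.00426). The call was lost after quantile normalisation (0.27) and array median centring (0.35). Rnaseh2c, a subunit of ribonuclease H2, fell by the probe set 1435733_x_at (-1.93, limma adjusted p = 0.0238), while its other 2 probe sets stood at -1.53 and -1.40 without passing. That call was lost after quantile normalisation (-0.44) and by the Wilcoxon test (exact, adjusted p = 0.0517). Ern1, the endoplasmic reticulum stress sensor with a ribonuclease domain and the highest mean score of this list, stood at 0.58 (limma adjusted p = 0.585).

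Secreted factors that promote or oppose vessel growth gave 2 of 27 probe sets of 16 genes, again 1 in each direction (list median 0.23). Of all probe sets 2.32% passed, 1.11% higher and 1.2% lower. Vegfb, a growth factor of the VEGF family, fell. Its scores were 6.607338, 6.60758 and 6.608018 in high-fat mice, against 6.607893, 6.607998 and 6.608242 in low-fat mice, with 9 of 10 high-fat mice below the low-fat median. These scores lay close to the array medians (6.56702 to 6.5672), and detection calls were not among the values used. The standardised difference was -3.03 (-4.33 to -1.70, limma adjusted p = 0.00114), and -4.89 without high-fat replicate 3, which lay apart from its group. Hrg, a plasma glycoprotein rich in histidine, rose, with scores of 13.041094, 13.041104 and 13.041112 in high-fat mice, against 13.041072, 13.041088 and 13.041103 in low-fat mice. The standardised difference was 1.98 (0.88 to 3.05, limma adjusted p = 0.0227), but -1.08 after array median centring. Hrg had no value after quantile normalisation, where its probe set no longer varied. Vegfa stood at 0.34 and 0.72, and Plg, the precursor of plasmin and the gene with the highest mean score of this list, at 0.72 (limma adjusted p = 0.517).

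Position on the chromosome gave no further call. The 5 nearest protein-coding genes with a probe set on each side of the 3 members were 20 genes with 34 probe sets. Of these 34, 0 passed by limma or Wilcoxon, beside 2.32% and 1.75% of all probe sets. An unadjusted limma p of 0.05 or less was seen in 6, beside 15.1% of all. The standardised differences of the 34 ran from -1.60 to 1.52 with a median of 0.16. Beside Ang and Rnase4 the largest was that of Pip4p1, a phosphatase of phosphoinositides (1.52, limma adjusted p = 0.121), and beside Rnh1 that of Lmntd2 (-1.60, limma adjusted p = 0.0629). Without high-fat replicate 2 or without high-fat replicate 3, 1 of the 34 passed. The neighbours Rnase10, Rnase6, Rnase1, Rnase2b, Ang2 and Rnase2a are also in the family list above, by the same probe sets. For these genes the lists are not separate results.

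Genes whose scores ran most like those of the members over the 20 mice, after each diet's mean had been taken off, are given as a description and without a test. For Ang 1438936_s_at they were Efhc2 (r = 0.79), Lypd6 (0.78), Gimap7 (0.75), an immunoglobulin kappa variable gene (0.74) and the Janus kinase Tyk2 (0.73). Of these only Tyk2 had a mean score above the array medians (7.41). For Rnase4 they were Mettl22 (0.84), the T cell surface protein gene Cd6 (0.82), Cdca2 (0.81), Tspan18 (0.81) and the lysosomal transporter Slc15a4 (0.81). For Rnh1 they were Trap1, a mitochondrial chaperone (0.92), Klhdc4 (0.90), Syngr2 (0.88), Apof, an apolipoprotein (0.87), and Cope, a subunit of the coat of vesicles (0.87). Mean scores below the array medians were also those of Cd6 (6.31), Cdca2 (6.53) and Slc15a4 (5.85) for Rnase4, and of Klhdc4 (6.53) for Rnh1. The ranking left out the 3 members themselves and symbols that start with Gm or end in Rik. All 15 values are the highest among the other probe sets with 1 symbol, on shared arrays, and none of the 15 genes passed in the diet comparison (limma adjusted p from 0.0661).

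The tissue label was checked against cell type markers. Hepatocyte markers were measured for 6 of 7 genes, with mean scores up to 14.82 (Alb). Of their 15 probe sets 2 fell by limma (1.2% of all probe sets) and 4 by the exact Wilcoxon test (1.75% of all in either direction). All 4 were of Ttr, the carrier of thyroid hormone and retinol. The 2 that passed by Wilcoxon alone stood at -3.12 (limma adjusted p = 0.241, exact Wilcoxon adjusted p = 0.00602) and -2.51 (limma adjusted p = 0.261, exact Wilcoxon adjusted p = 0.00995). The 4 probe sets of Apoa1, the main protein of high-density lipoprotein, stood on the other side at 1.35 to 1.44. Each had 9 of 10 high-fat mice above the low-fat median, and none passed by either test (limma adjusted p = 0.727 to 0.877). Their SDs within a diet were only 1.97e-07 to 5.13e-07. In all, 5 of the 15 were above the low-fat mean, beside 52.2% of all probe sets, and the list median was -0.66. The mean standardised level of the list ran from -1.53 to -0.22 in high-fat and from -0.52 to 0.48 in low-fat mice, relative to the low-fat mean. Probe sets with SDs as small as those of Apoa1 count in it like the others. Ang, whose transcript is abundant in hepatocytes, was higher in the same mice, and the part of these markers in that difference was not tested. In bulk liver, a change in the number of cells of a type and a change in RNA per cell cannot be told apart. Of the other 9 marker lists, those of Kupffer, sinusoidal endothelial, stellate, bile duct, white blood, erythroid and fat cells had 0 probe sets past the threshold by limma or Wilcoxon. Over these 7 lists 3 had an unadjusted limma p of 0.05 or less (15.1% of all probe sets). Stellate markers leaned upward, with 9 of 11 probe sets above the low-fat mean and a list median of 0.68. Their mean standardised level ran from -0.43 to 1.15 in high-fat and from -0.74 to 0.78 in low-fat mice. Among the rest of these 7 lists the medians ran from -0.23 (white blood cells) to 0.17 (sinusoidal endothelial cells). In the lists of pancreatic acinar cells and skeletal muscle 1 probe set each passed by limma. These were Cela1 (1.80, exact Wilcoxon adjusted p = 0.0629) and Mylpf (-1.99).

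**Figure D4:**
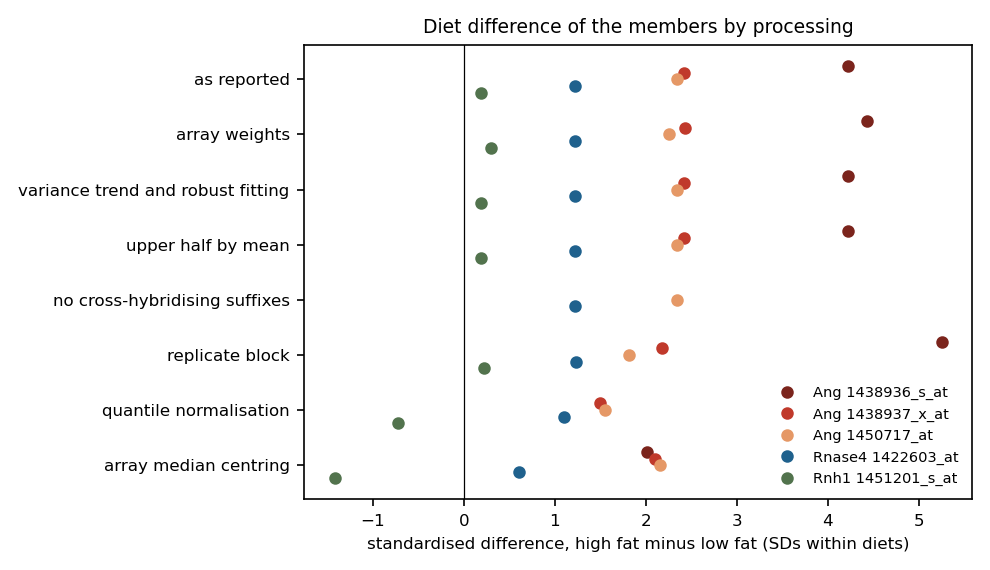
Standardised differences of the 5 member probe sets, high fat minus low fat, under each processing (rows), with the reported one on top. Each is in the SD left by its own fit. That is the SD within diets, except in the row with array weights (a weighted SD) and in the row with the replicate block. There it is the SD left after replicate effects, so sizes in that row, 5.25 among them, are on another scale. Ang lies between 1.5 and 5.25 in every row, Rnase4 between 0.61 and 1.23, and Rnh1 turns to -0.72 and -1.42 after quantile normalisation and array median centring. Ang 1438936_s_at has no value after quantile normalisation, which left it with 1 value on all arrays.

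Under both scalings tried, each Ang probe set that still varied stayed higher in high-fat mice. After quantile normalisation the median standardised difference of all probe sets moved to -0.41, and Ang stood at 1.5 and 1.55 by the 2 probe sets that still varied. After array median centring the median of all moved to -1.29 and 85.7% of probe sets were called, while Ang stood at 2.01 to 2.15 and Rnase4 at 0.61.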

How the data were processed

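Per the labels' protocols, biotin-labelled RNA was prepared from 200 ng of total liver RNA by a kit that starts at the transcript end, and each of 20 mice had its own Affymetrix array. The deposited table holds 1 score per probe set and array (summary and normalisation not given in the sources used here). Precision is limited by the number of arrays. The 64 control probe sets were left out, 34945 of the others had 1 gene symbol (34741 matched the gene table of GRCm38.p6 by gene identifier), 932 had several and 9160 are unnamed here. The table held 0 columns of other samples, and 0 pairs of arrays were identical. The planned design took the score as log-like, and because of its compression sizes are standardised, with noncentral t intervals.

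Diets were compared by limma 3.58.1 in R 4.3.3 (lmFit, eBayes, two-sided, no covariate), adjusted by Benjamini-Hochberg over 45037 probe sets at 0.05, with no filter. The prior had 0.778 degrees of freedom. Correlations used 100000 permutations of mice (scipy 1.17.1), two-sided. No batch is named in the labels. On simulated data for this comparison with all 45037 probe sets, the fit recovered 1.33% of planted shifts of 1 SD, 33.3% at 2 SD and 90% at 3 SD, with 1 false call.

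Members and gene lists were chosen with earlier results of these data known. Text names every member probe set, list and neighbour genes past the threshold, the gene of each related list with the highest mean score, and the 5 genes most like each member. Ang2, Ang3, Ang4, Ear3, Plxnb2, Egfr, Tsen15, Tsen54, Nsun2, Trdmt1, Vegfa, Pip4p1, Lmntd2 and the markers were named outside that rule, after their values were seen. Alternatives were quantile normalisation, array median centring, only probe sets with a mean above the median probe set, robust fitting with a variance trend, an unmoderated model, the replicate number as a block, array weights, no cross-hybridising suffixes (_s_at, _x_at), an exact Wilcoxon test, and leaving out each array.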

Additional observations from a re-analysis of the deposited data

Results flagged for a closer look

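Single mice were looked for in 20 groups of 10, the 5 member probe sets and the 5 related probe sets past the threshold in each diet, by the gap to the nearest mouse over the range of the group (Dixon's ratio). Chance flags about 1 in 20 independent groups. These groups share mice and probe sets of 1 gene, so they are not independent, and 3 were found. Low-fat replicate 6 lay below its group for Ang 1438936_s_at (gap over range 0.569, score 12.285427) and for Ang 1438937_x_at (0.552, score 11.476393). Without it the standardised differences were 5.12 and 3.04, high fat minus low fat. For Vegfb, high-fat replicate 3 lay above its group (0.565, score 6.608018), and without it the standardised difference was -4.89 (limma adjusted p = 1.1e-05).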

How the results depend on the processing

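All 3 Ang probe sets passed, and Rnase4 did not, in each of the 20 fits without 1 array (Ang 2.23 to 5.12, Rnase4 1.10 to 1.62). So 3 of 5 member probe sets passed each time. These fits share most arrays and the contrast that chose the members, so nothing is read from them. The count of passing member probe sets was 1 of the 2 left without cross-hybridising suffixes. With the replicate number as a block it was 2 of 5, because Ang 1450717_at stood at 1.82 without passing, and 3 of the 101 related probe sets passed instead of 5, Tsen34 (-1.83) and Hrg (1.70) being lost. Over all probe sets the block lowered the calls from 1043 to 538. Ang 1438936_s_at stood at 5.25 with the block (4.22 without it) and Dis3 at 5.97 (2.54 without it). Sizes with the block are in SDs left after replicate effects, another scale than the SDs within diets. Same-numbered mice correlated at -0.15 to 0.23, 2 of 10 pairs above 0.1, and 1 of 10 numbers was its mouse's best match. Whether mice of 1 number shared a cage, litter or run is not stated in the labels and was not tested. Rnh1 turned to -0.72 after quantile normalisation and -1.42 after array median centring, where Hrg turned to -1.08, and Rnh1 ranged from -0.04 to 0.51 without 1 array. Of related probe sets 3 of 89 passed without cross-hybridising suffixes, 76 of 101 after median centring and 5 to 6 without 1 array. Of neighbouring probe sets 31 of 34 passed after median centring, 2 of 33 after quantile normalisation, 1 of 19 among probe sets above the median mean, and 0 to 1 without 1 array. Median centring takes the array median, whose difference between diets (7.33e-05) exceeds the SD of Rnh1 (1.85e-05), from every score. Calls over all probe sets were then 396 higher and 38220 lower, and 380 higher and 3784 lower after quantile normalisation, which left 2676 probe sets constant, and 788 with the Wilcoxon test. Of the within-diet correlations 10 of 20 passed, 0 of 12 after quantile normalisation, 0 of 20 without the 2 far mice, and 5 to 12 without 1 array. Signs turned after quantile normalisation for Rnh1 with Rnase4 in high-fat mice (-0.38) and with Ang 1438937_x_at in low-fat mice (0.08). After median centring r for Rnh1 was 0.40, -0.40 and -0.17 in high-fat mice with Ang 1438936_s_at, 1438937_x_at and 1450717_at, and 0.80, 0.44 and 0.17 in low-fat mice, with 0.55 for Rnase4 there. Without the 2 far mice Rnh1 and Ang 1438936_s_at had r = 0.25 in high-fat and 0.17 in low-fat mice. Without 1 array that pair ranged from -0.20 to 0.12 in high-fat and -0.48 to 0.23 in low-fat mice, and Ang 1438936_s_at with Rnase4 from -0.01 to 0.63 in low-fat mice. Where no construction is named, the cause was not tested.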
